A study of Homo sapiens with 4 samples.

Results

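Mitosis and G2/M genes are the genes that a dividing cell switches on late in its cycle, and 44 of them were listed here by name. They were found among the probes whose RefSeq transcript belongs to one of these genes, which gave 53 probes for 43 of the 44 genes, out of 20501 genes and 50590 probes measured in the series. UBE2C had no such probe. Each gene was read from its brightest probe over the arrays. The RNA came from MCF-10A, an immortalized but non-tumorigenic line of human mammary epithelial cells grown with epidermal growth factor, insulin, hydrocortisone and cholera toxin. Cells were given 10 µM of a hydrocarbon-stapled peptide and taken after 24 h or 48 h, with 1 sample per condition. One peptide is labelled stapled-peptide, the other non-specific stapled-peptide. All groups carried a stapled peptide, the non-specific one is marked as the control treatment, and untreated cells were not analysed here. The labels do not say which synthesized peptide is behind each name.

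In the G2 phase, cyclins A and B activate the kinase CDK1, and the kinases PLK1, AURKA and AURKB then drive the build-up of the spindle and the attachment of chromosomes at their kinetochores. The spindle assembly checkpoint holds back the ubiquitin ligase APC/C and its activator CDC20 until all chromosomes are attached, after which securin and cyclin B are destroyed, separase cuts cohesin and the cell divides. Many of these genes are transcribed together by FOXM1 and by the MuvB complex with B-MYB, which acts through short promoter elements, and their summed level is widely used as a measure of dividing cells in a population.

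Each condition had 1 array, so no difference has a replicate check, and none was tested. Values are log2 signals after quantile normalization over the 4 arrays, and a difference of 1 on this scale is a 2-fold change. All 4 arrays lay on 1 slide and were read in 1 scan, 62.5% to 65.7% of the spots were well above background, and spots of the same probe on an array had a median SD of 0.087 to 0.096. The array of non-specific stapled-peptide at 48 h stood apart from the others: over all genes its Pearson r with them was 0.778 to 0.785, against 0.987 to 0.988 among the other 3, given as a description. A list of 12 basal mammary markers was written with earlier results of these data known. On those 3 arrays they had a median of 13.22, 13.30 and 13.23 and were all well above background, whereas on the fourth the median was 5.16 with 11 of 12 above background. The basal keratin KRT5 read 14.65, 14.54 and 14.59 and then 5.02. TP63, which moved least of the 12, read 6.22, 5.99 and 5.86 and then 4.85. The defining markers of this array thus go against its label as MCF-10A, and whether it holds RNA of that line is in doubt. It is called by its label in what follows, every direction drawn from it carries this doubt, and array, culture and condition cannot be told apart. The differences at 24 h and over time with stapled-peptide take no value from it. It did enter the normalization, the choice of the brightest probe and the choice of the genes of like signal.

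Promoter sequences of 37 of the listed genes were found in the RefSeq table of GRCh38.p14, which gives 250 bases before and 50 after each annotated start. They were searched on both strands for the core of the cell cycle genes homology region (CHR; TTTGAA or TTCGAA), through which MuvB complexes bind, and for the box bound by NF-Y (CCAAT). A CHR match was present in 28 of the 37 genes (75.7%) against 19.5% of all 27305 genes with a promoter and 16.1% of 3623 genes of like signal. The NF-Y box was matched in 29 (78.4%) against 39.7% and 44.3%, and both occurred together in 23 (62.2%) against 7.85% and 6.76%. Matches of the 2 motifs overlapped in 2 genes. A match is a description and not a shown binding site.

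The 120 bases before the start are given for 8 genes, because they show which elements were present in genes that differed in opposite directions at 48 h. In 5 of them the signal was higher with the non-specific peptide, and in 3 it was lower. ANLN is among these 3, and its direction at 48 h turned without normalization. All 5 higher ones hold both motifs, and higher genes without a CHR match, among them AURKB and CENPE, are not printed. Capitals mark CHR and NF-Y matches. CCNB2 (chr15:59105026-59105145, plus strand), PLK1 (chr16:23678769-23678888, plus), ESPL1 (chr12:53268179-53268298, plus), PRC1 (chr15:90994536-90994655, minus) and CDK1 (chr10:60778358-60778477, plus, the downstream one of its starts) belong to the first kind. ANLN (chr7:36389742-36389861, plus), MKI67 (chr10:128126424-128126543, minus) and KIF20A (chr5:138178992-138179111, plus) belong to the second.
CCNB2: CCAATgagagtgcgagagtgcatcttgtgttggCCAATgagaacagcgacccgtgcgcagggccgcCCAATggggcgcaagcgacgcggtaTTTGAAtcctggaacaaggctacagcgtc
PLK1: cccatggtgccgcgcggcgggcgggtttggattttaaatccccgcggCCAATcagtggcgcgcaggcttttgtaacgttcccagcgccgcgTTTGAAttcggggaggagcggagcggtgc
ESPL1: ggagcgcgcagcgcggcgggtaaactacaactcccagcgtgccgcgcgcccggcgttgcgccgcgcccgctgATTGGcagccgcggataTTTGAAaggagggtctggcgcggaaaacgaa
PRC1: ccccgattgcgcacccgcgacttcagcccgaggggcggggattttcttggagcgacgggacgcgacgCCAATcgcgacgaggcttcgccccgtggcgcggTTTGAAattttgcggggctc
CDK1: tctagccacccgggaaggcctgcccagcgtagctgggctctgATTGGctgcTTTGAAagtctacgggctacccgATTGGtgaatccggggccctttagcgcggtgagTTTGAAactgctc
ANLN: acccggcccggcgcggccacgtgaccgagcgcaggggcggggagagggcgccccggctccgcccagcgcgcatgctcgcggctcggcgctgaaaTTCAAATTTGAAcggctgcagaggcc
MKI67: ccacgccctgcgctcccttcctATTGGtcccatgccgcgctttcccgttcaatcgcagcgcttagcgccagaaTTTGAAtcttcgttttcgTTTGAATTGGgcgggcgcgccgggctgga
KIF20A: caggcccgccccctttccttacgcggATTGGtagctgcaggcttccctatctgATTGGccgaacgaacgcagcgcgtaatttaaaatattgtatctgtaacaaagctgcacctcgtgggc
The first base of the CHR match lay 29 bases before the start in CCNB2 and PLK1, 31 in ESPL1 and 20 in PRC1. ANLN carried CHR matches 26 and 20 bases and MKI67 47 and 29 bases before the start, and KIF20A held NF-Y boxes without a match to these CHR letters in the window.

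Members with and without both motifs covered overlapping ranges on the arrays. At 48 h the median difference was 1.40 over the 23 genes with both and 1.52 over the remaining 14, with ranges from -0.98 to 2.69 and from -0.72 to 2.84. At 24 h the medians were 0.13 and 0.18. Split by the CHR match alone, the 48 h median was 1.43 over the 28 genes with it and 1.53 over the 9 without. The 24 h medians of these 2 sets were 0.14 and 0.18.

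All 43 genes were well above background on all 4 arrays. In 40 of them the 48 h array of non-specific stapled-peptide gave the highest value of the 4, in 3 (KIF20A, ANLN and MKI67) the lowest, and in none did it lie within the span of the others. ANLN depended on the scaling, since without normalization its difference between the peptides at 48 h was 0.12 in place of -0.20. The other 3 arrays lay close together, with a span of 0.06 to 0.43 and a median span of 0.18 per gene.

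**Figure D1:**
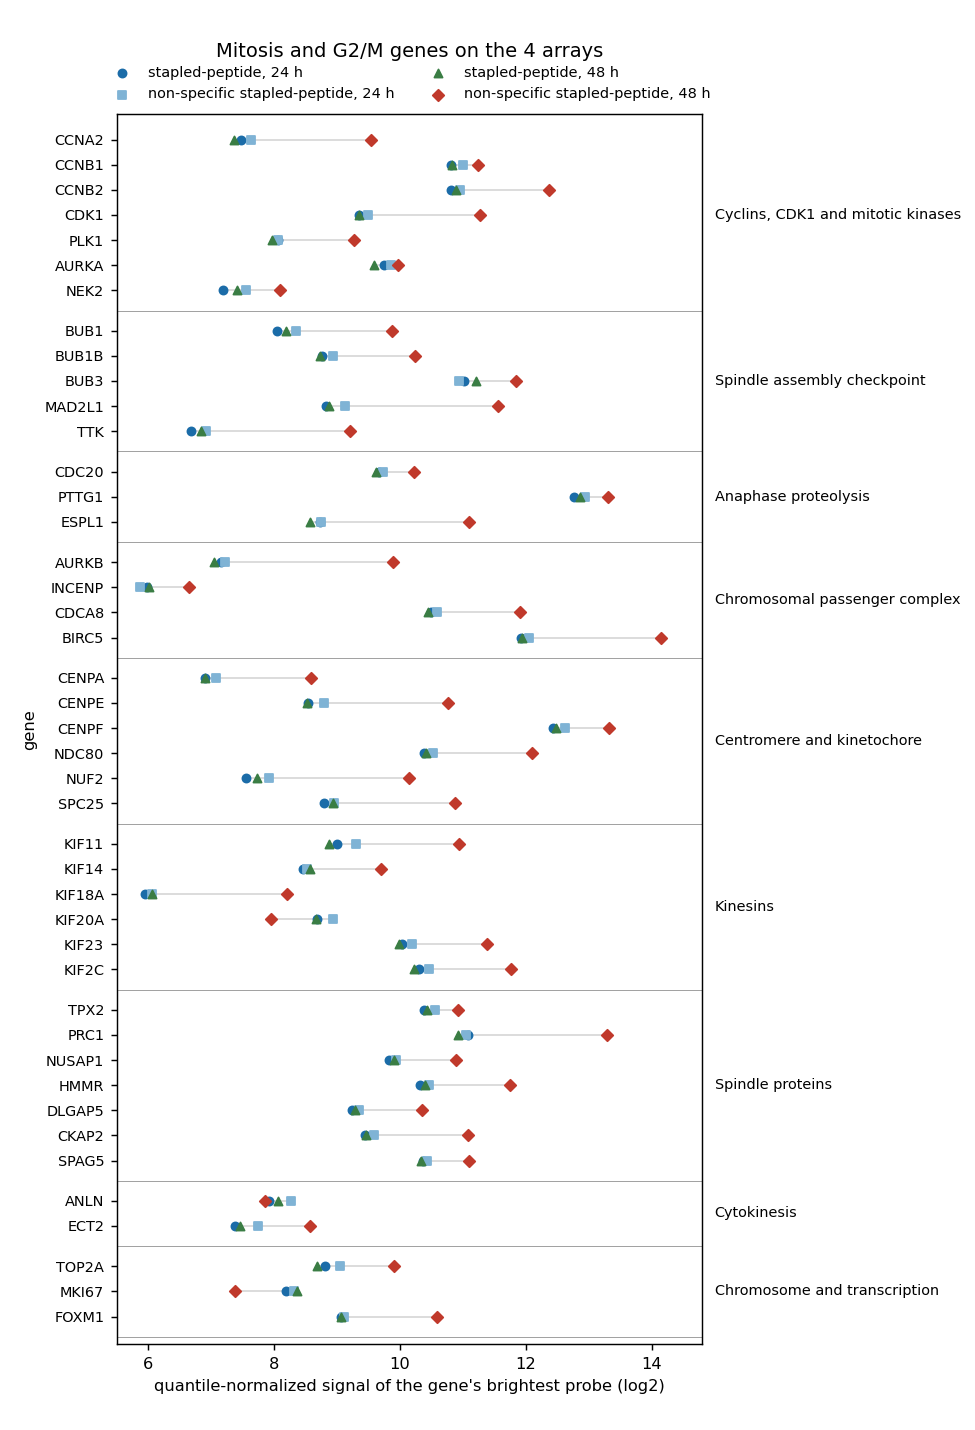
Log2 quantile-normalized signal (x axis) of the 43 genes (y axis, grouped by role) on each of the 4 arrays, 1 point per array. The 48 h array of non-specific stapled-peptide (red diamonds) lies to the right of the other 3 in 40 genes and to the left in KIF20A, MKI67 and ANLN, the last of which turned higher at 48 h without normalization.

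The first question was whether the peptides differed after 24 h. With non-specific stapled-peptide, 39 of 43 genes had a higher signal than with stapled-peptide and 4 (PLK1, PRC1, BUB3 and INCENP) a lower one, while 52% of 16228 genes measured at 24 h and 51.1% of genes of like signal were higher. Under normexp background correction 36 genes were higher, and the signs of PLK1 and BUB3 turned with the mean over probes. The differences were small, with a median of 0.15 (1.11-fold), an interquartile range of 0.10 to 0.21 and a span from -0.11 to 0.38. No member passed 2-fold in either direction, as against 0.838% of all genes higher and 1.04% lower, and 0% and 0.112% of genes of like signal. These genes, which are the 4456 genes whose mean lay between 8.34 and 10.63, the quartiles of the members' own means, had a median of 0.00. Their upper quartile was 0.08, and 33 of the 43 members lay above it, as did 31.9% of all genes and, by construction, 25% of the like-signal genes.

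The largest differences at 24 h were those of the kinetochore gene NUF2 (0.38), the cytokinesis genes ECT2 (0.36) and ANLN (0.35), the centrosomal kinase NEK2 (0.36) and the checkpoint gene MAD2L1 (0.30). A second probe of NEK2 gave 0.18. The 4 lower genes had -0.01 (PLK1), -0.03 (PRC1), -0.08 (BUB3) and -0.11 (INCENP). None of these arrays is the one that stood apart, and normalization without it left 39 of 43 genes higher with a median of 0.15. In that check probes and genes of like signal were still chosen over all 4 arrays. The SD of the differences was 0.11 over the members and 0.16 over the like-signal genes.

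Because 8 of the genes were printed as many spots, with 8 to 10 usable on each array, their 24 h difference could be set against the error between spots. CCNB1 differed by 0.19 ± 0.016, CDK1 by 0.15 ± 0.021, BIRC5 by 0.13 ± 0.014 and CCNA2 by 0.16 ± 0.044, each with the SE over spots. TOP2A (0.25 ± 0.046), CENPE (0.25 ± 0.041) and KIF20A (0.25 ± 0.031) were likewise over 2 SE from 0, while INCENP was not (-0.11 ± 0.072). This error covers 1 array each and not the spread between cultures, which these data do not give.

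Time with stapled-peptide left the same genes, read at their brightest probes, nearly where they were. From 24 h to 48 h 26 genes were higher and 17 lower, with a median of 0.01 and a span of -0.17 to 0.22, while 50.1% of all 16138 genes and 48.1% of genes of like signal were higher. No member passed 2-fold at its brightest probe, beside 0.923% of all genes higher and 1.13% lower, and 0% and 0.0449% of those of like signal. The like-signal genes had a median of 0.00 with quartiles of -0.07 and 0.07, and 14 members lay above the upper one, as did 31.9% of all genes. Values at the top were 0.22 for NEK2, 0.19 for BUB3, 0.18 for MKI67 and NUF2 and 0.15 for SPC25, and at the bottom -0.17 for ESPL1, -0.16 for AURKA and PRC1 and -0.13 for KIF11 and TOP2A. Another probe had the opposite sign for NEK2 (-0.11), BUB3 (-0.08) and MKI67 (-0.11 at its dimmest probe, 0.17 at the remaining one). Larger values came from the dimmer second probes of CKAP2 (1.24, over 2-fold) and PLK1 (-0.52). Of the 8 genes with many spots, 2 were over 2 SE from 0, CCNA2 (-0.11 ± 0.043) and TOP2A (-0.13 ± 0.042). Without normalization the median was -0.21 and only 1 gene was higher, beside a like-signal median of -0.21, so the direction of this comparison depends on the scaling.

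Over the 3 arrays that resembled each other, non-specific stapled-peptide at 24 h gave the highest value in 37 of 43 genes, while it did so in 35.5% of the 14042 genes that were well above background on all arrays and in 36.3% of those of like signal. The comparisons at 24 h and over time with stapled-peptide share an array and are not independent.

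**Figure D2:**
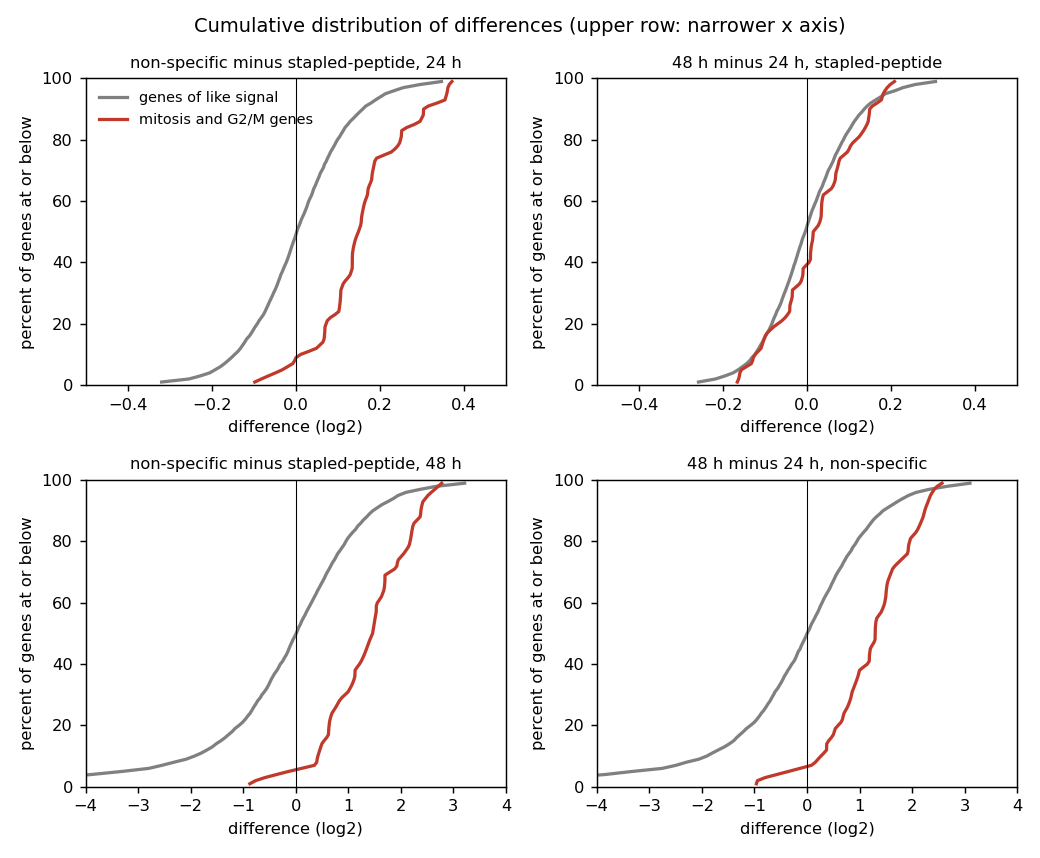
Cumulative percent of genes (y axis) at or below a log2 difference (x axis, narrower in the upper row) for the mitosis and G2/M genes (red) and the 4456 genes of like signal (grey). The red curve lies right of the grey one for the peptides at 24 h and 48 h and for time with non-specific stapled-peptide, with medians of 0.15, 1.46 and 1.30, and close to it for time with stapled-peptide, with 0.01.

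At 48 h, where the array in doubt is used, the values lay further apart. With non-specific stapled-peptide 40 of 43 genes were higher and 3 lower, beside 51.1% of all genes and 50.3% of those of like signal that were higher. The median difference was 1.46 (2.75-fold) with an interquartile range of 0.73 to 2.001, and 29 genes passed 2-fold, 11 of them also 4-fold. On the same pair of arrays 21.2% of 17112 genes passed 2-fold upwards and 19.8% downwards, and 18.7% and 21.3% of those of like signal. The like-signal median was 0.01 with quartiles of -0.83 and 0.77, and 32 members lay above the upper one, as did 26.8% of all genes. No member was lower by over 2-fold. The SD of the differences was 0.87 over the members and 1.75 over the like-signal genes, and neither spread was tested.

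Largest at 48 h were AURKB (2.84, 7.16-fold), MAD2L1 (2.69), ESPL1 (2.53), NUF2 (2.41) and TTK (2.38). The 3 lower genes had -0.98 (MKI67), -0.72 (KIF20A) and -0.20 (ANLN, 0.12 without normalization). Across the 43 genes the differences at 48 h and at 24 h, which share no array, had a Pearson r of 0.003 and a Spearman rho of 0.046, as a description over genes that share their arrays.

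Over time under the non-specific peptide, 40 genes were higher at 48 h and 3 lower, while 50.4% of 17297 genes and 50.1% of those of like signal were higher. The median was 1.30 and 27 genes passed 2-fold upwards and none downwards, beside 21.3% and 20.1% of all genes, and 18.6% and 21.1% of those of like signal. This comparison and that between the peptides at 48 h share the array that stood apart. AURKB (2.66), MAD2L1 (2.44), ESPL1 (2.35), TTK (2.30) and PRC1 (2.25) led it, and KIF20A (-0.98), MKI67 (-0.93) and ANLN (-0.41) were lower.

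Markers of other cells moved with the 48 h values. The marker lists were written with earlier results of these data known. Their counts thus describe the array of non-specific stapled-peptide at 48 h and are no independent evidence about it. The summed log2 level of the 12 basal markers was 17.11 to 17.12 on the other arrays and 9.35 on this one. A list of 8 genes of embryonic and neural-like lines, among them LIN28B and UCHL1, had 1, 2 and 1 genes above background on the others with a summed level of 7.56 to 7.80, and 7 of 8 with 16.06 here, LIN28A being the one that stayed dim. The 8 luminal markers summed to 14.90 to 14.98 and then 12.68, mostly from KRT18, with 6 above background on each array. Their median was 5.53 to 5.63 and then 6.41, with FOXA1 (1.31) and KRT19 (0.94) higher at 48 h than with stapled-peptide and KRT18 (-2.34) and KRT8 (-2.79) lower. The summed level was also lower for the 4 leukocyte markers, with 9.52 to 9.53 and then 8.09 and 3 above background on each array. The 7 fibroblast markers summed to 14.85 to 14.97, nearly all from DCN, and then 7.60, with 4, 4 and 3 and then 3 above background, while COL1A2 and COL3A1 were dim on every array. The part of other cells in the higher mitosis signals was not tested. RNA from another line, more dividing cells and more of these RNAs per cell cannot be told apart in bulk RNA.

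Values by role are given in the order stapled-peptide and non-specific stapled-peptide at 24 h, then the same at 48 h. Among cyclins, CDK1 and mitotic kinases, 7 of 7 genes were higher at 48 h and 4 passed 2-fold, with a median of 1.30, and 6 of 7 were higher at 24 h with a median of 0.15. CCNA2, the cyclin of S phase and early mitosis, read 7.47, 7.62, 7.36 and 9.55. CCNB2 read 10.82, 10.95, 10.88 and 12.37. CDK1, the kinase that both cyclins activate, read 9.34, 9.49, 9.35 and 11.27. In these 3 genes the first 3 arrays lay within 0.27 of each other and the last stood 1.42 or more above them. CCNB1, the main partner of CDK1 at entry into mitosis, moved less, with 10.81, 11.002, 10.83 and 11.24, and its second probe read 9.09, 9.41, 9.18 and 10.20, so that the difference at 48 h was 0.41 or 1.02 by probe. PLK1, which acts from centrosome maturation to cytokinesis, read 8.07, 8.06, 7.97 and 9.27. AURKA, the kinase of the spindle poles, had 9.74, 9.86, 9.58 and 9.97, a difference of 0.39 at 48 h that was not much larger than the span of the other arrays (0.27). NEK2, which separates centrosomes, read 7.19, 7.55, 7.41 and 8.09.

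The spindle assembly checkpoint genes were all higher at 48 h (5 of 5, 4 past 2-fold, median 1.70), and 4 of 5 at 24 h with a median of 0.23. MAD2L1, whose protein inhibits CDC20, read 8.82, 9.12, 8.88 and 11.56. TTK, the kinase that starts the checkpoint signal, read 6.68, 6.91, 6.83 and 9.21. BUB1 read 8.04, 8.35, 8.18 and 9.88. For these genes the order of the first 3 arrays was the same, lowest with stapled-peptide at 24 h and highest with non-specific stapled-peptide at 24 h. BUB1B, the BubR1 subunit of the inhibitor complex, read 8.76, 8.93, 8.72 and 10.23. BUB3, which docks the others at kinetochores, departed least at 48 h, with 11.01, 10.94, 11.21 and 11.85, and at 24 h its probes disagreed in sign (-0.08 and 0.11).

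Genes of anaphase proteolysis with a probe were all higher at 48 h (3 of 3), but 1 passed 2-fold. The median was 0.62, and at 24 h 3 of 3 were higher with a median of 0.07. The gene past 2-fold was ESPL1, which encodes separase and read 8.73, 8.74, 8.57 and 11.09. PTTG1, which encodes its inhibitor securin, read 12.76, 12.94, 12.86 and 13.31. CDC20, the activator of the APC/C, read 9.66, 9.73, 9.61 and 10.23. At 48 h the difference was 2.53 for the protease and 0.45 for its inhibitor.

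The chromosomal passenger complex corrects faulty attachments and later marks the cleavage plane. All 4 genes were higher at 48 h, 3 past 2-fold, with the highest group median (1.84), and 3 of 4 at 24 h with a median of 0.09. AURKB, its kinase, read 7.15, 7.22, 7.04 and 9.88. BIRC5, which encodes survivin, read 11.93, 12.06, 11.94 and 14.15, and CDCA8, which encodes borealin, 10.49, 10.59, 10.45 and 11.91. The scaffold INCENP behaved less like its partners, with 5.98, 5.86, 6.01 and 6.64, lowest of the 4 arrays with non-specific stapled-peptide at 24 h. Its difference between the peptides at 24 h was not over 2 SE from 0 by its spots.

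Centromere and kinetochore genes were higher in 6 of 6 cases at both times, with medians of 1.82 at 48 h and 0.18 at 24 h, and 5 passed 2-fold at 48 h. NUF2 read 7.55, 7.92, 7.72 and 10.13, and its partners in the microtubule-binding NDC80 complex followed, with 10.38, 10.52, 10.41 and 12.10 for NDC80 and 8.79, 8.95, 8.94 and 10.88 for SPC25. The kinesin CENPE, which carries chromosomes to the spindle equator, read 8.54, 8.79, 8.52 and 10.76. CENPA, the histone variant that defines the centromere, read 6.89, 7.08, 6.91 and 8.59. CENPF, a large protein of the outer kinetochore, had the smallest difference of the group at 48 h (0.85, and 0.27 at its second probe), with 12.44, 12.62, 12.47 and 13.32.

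Of the mitotic kinesins 5 of 6 were higher at 48 h, all past 2-fold, and 1 lower, while at 24 h 6 of 6 were higher with a median of 0.16. KIF11, which pushes the spindle poles apart, read 9.003, 9.30, 8.87 and 10.93, with the widest span among the first 3 arrays of any member (0.43). KIF18A, which dampens chromosome oscillation, read 5.95, 6.05, 6.05 and 8.21. KIF2C, a microtubule depolymerase, read 10.31, 10.46, 10.23 and 11.76. On the last array these lay above the others, as did KIF23 (10.02, 10.20, 9.98 and 11.38) and KIF14 (8.45, 8.52, 8.57 and 9.70), both of which act at the midbody. KIF20A, a kinesin of the central spindle that works beside them in cytokinesis, went the other way, with 8.68, 8.93, 8.67 and 7.94. Its spots, 10 usable on each array, placed the difference at 48 h at -0.72 ± 0.035 (SE over spots).

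Spindle proteins were all higher at 48 h (7 of 7, 4 past 2-fold, median 1.07), and 6 of 7 at 24 h with a median of 0.11. PRC1, which bundles the antiparallel microtubules of the central spindle, differed most, with 11.08, 11.05, 10.92 and 13.29. CKAP2 read 9.45, 9.59, 9.46 and 11.08 and HMMR 10.32, 10.45, 10.40 and 11.75. The second probe of CKAP2 was less steady and read 5.21, 5.52, 6.44 and 7.24. TPX2, the activator of AURKA, was close to that kinase in the size of its difference (0.50), with 10.38, 10.55, 10.42 and 10.92. DLGAP5, NUSAP1 and SPAG5 lay between, with differences of 1.07, 0.996 and 0.77.

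In cytokinesis and chromosome genes the members parted. ECT2, the exchange factor that activates RhoA at the cleavage site, read 7.38, 7.75, 7.45 and 8.57, whereas ANLN, the scaffold of the contractile ring, read 7.91, 8.26, 8.06 and 7.86, where the last value is close to that of stapled-peptide at 24 h and its sign at 48 h turned without normalization. FOXM1, the transcription factor of many genes of the list, read 9.07, 9.12, 9.06 and 10.59, and TOP2A, which untangles sister chromatids, 8.80, 9.05, 8.68 and 9.91. MKI67, which encodes the proliferation marker Ki-67, was lower at all 3 of its probes at 48 h. These read 8.18, 8.31, 8.36 and 7.38 at the brightest, 7.20, 7.49, 7.37 and 7.15 at the next and 6.93, 7.06, 6.81 and 6.66 at the last, with differences of -0.98, -0.22 and -0.15. Among the 9 genes with over 1 probe, none had probes of opposite sign at 48 h.

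**Figure D3:**
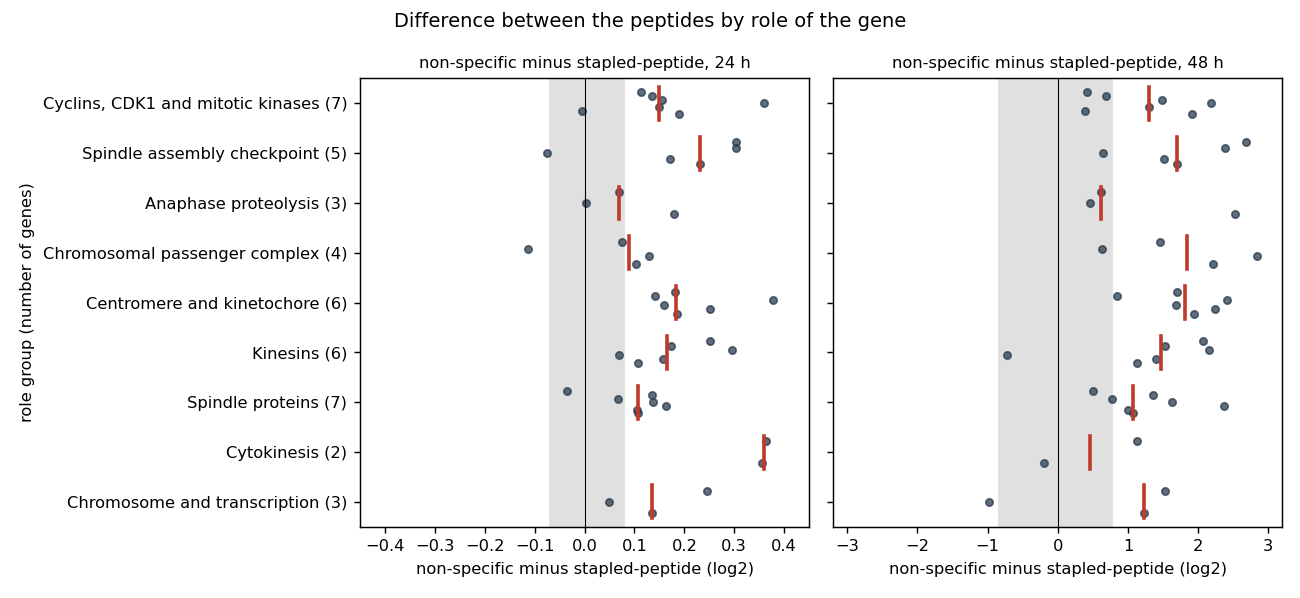
Log2 difference between non-specific stapled-peptide and stapled-peptide (x axis) of each mitosis and G2/M gene by role (y axis) at 24 h (left) and 48 h (right), with the group median as a red bar and the interquartile range of like-signal genes in grey. At 48 h 6 of 9 role groups hold no lower gene than 0.39, and KIF20A, MKI67 and ANLN are the points below 0, ANLN turning to 0.12 without normalization.

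Further genes of the same processes were taken as 6 lists of 121 genes, of which 119 had a probe. At 48 h 99 of them were higher with non-specific stapled-peptide and 20 lower, 67 passed 2-fold upwards and 4 downwards, and the median was 1.16. On these arrays 51.1% of all genes were higher, 21.2% passed 2-fold upwards and 19.8% downwards, and each list below is to be read beside these shares. Without normalization, which moved the median of all genes to 0.26, 105 were higher and 77 passed 2-fold upwards. At 24 h 84 were higher and 35 lower, with a median of 0.05, between that of the members (0.15) and that of all genes (0.01), where 52% were higher. Over time with stapled-peptide 69 were higher and 50 lower, with a median of 0.03, and none passed 2-fold.

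Kinetochore and centromere genes outside the members were higher in 29 of 30 cases at 48 h, 18 past 2-fold, with a median of 1.56, and in 21 of 30 at 24 h with a median of 0.04. CENPU led with 8.77, 8.996, 8.80 and 12.34, followed by MIS18A (2.73) and CENPH (2.69). CENPC, CENPP and CENPT lay at the other end with -0.02, 0.08 and 0.19, CENPC turning to 0.27 without normalization. Condensin and cohesin genes were higher in 16 of 19 cases at 48 h, 14 past 2-fold, with a median of 1.53, and in 13 of 19 at 24 h with a median of 0.08. CDCA5, which encodes the cohesin protector sororin, differed by 2.76, SGO1, which guards centromeric cohesin, by 2.54 and the condensin II subunit NCAPD3 by 2.42, while STAG1 (-0.10), PDS5A (-0.10) and RAD21 (-0.08) were lowest and turned to 0.30, 0.19 and 0.08 without normalization.

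The further spindle and cytokinesis genes were higher in 24 of 27 cases at 48 h, 16 past 2-fold, with a median of 1.12, and in 19 of 27 at 24 h with a median of 0.06. At the top stood the augmin subunit HAUS6 (2.92) and the centriole genes SASS6 (2.81) and PLK4 (2.55), and at the bottom NUMA1 (-1.61), FAM83D (-0.55) and PIMREG (-0.44). MuvB subunits and partners were higher in 9 of 11 cases at 48 h, 6 past 2-fold, with a median of 1.28, and in 8 of 11 at 24 h with a median of 0.10. MYBL2, which encodes the activating partner B-MYB, read 7.66, 7.76, 7.81 and 10.57, and LIN9 (2.56) and E2F5 (2.31) came next, while RBL2 (-0.92), a pocket protein of resting cells, and LIN37 (-0.40) were lower and TFDP1 differed by 0.30, a value near 0 with the mean over probes.

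APC/C subunits and regulators had the lowest median of the 6 lists at 48 h (0.45), with 10 of 17 higher, near the 51.1% of all genes, and 6 past 2-fold. At 24 h 11 of 17 were higher with a median of 0.03. The inhibitor FBXO5 (1.94) and the ubiquitin-conjugating enzyme UBE2S (1.69) were followed by the core subunit ANAPC10 (1.30), and FZR1 (-0.79), ANAPC2 (-0.70) and CDC26 (-0.61) were at the bottom. Of the genes that control entry into mitosis 11 of 15 were higher at 48 h with a median of 0.90, 7 past 2-fold upwards and 3 downwards, the latter a share near the 19.8% of all genes. At 24 h 12 of 15 were higher with a median of 0.04. CDC25A, a phosphatase that activates cyclin-dependent kinases, read 7.05, 7.09, 7.04 and 11.85, and PKMYT1 (2.88), a kinase that inhibits CDK1, and BORA (2.87), which helps AURKA to activate PLK1, followed. CDC25B, another phosphatase of the family, read 11.90, 11.91, 11.86 and 9.63. CDKN1A, the p21 inhibitor, read 9.24, 9.18, 9.15 and 6.19, and SFN, an inhibitor of mitotic entry that is also among the basal markers above, 13.55, 13.64, 13.59 and 5.83.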

How the data were processed

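The 4 samples, labelled as MCF-10A and 1 per condition, were measured on single-colour Agilent arrays. The basal markers of the sample labelled non-specific stapled-peptide at 48 h go against that label. Per the file headers, the authors extracted spot intensity with Feature Extraction 10.7.1.1 (the labels name version 9.5), with the background subtracted and no normalization between arrays. The combined table the authors deposited holds mean spot intensity per probe and served as an alternative. Here control spots and spots marked as outliers were dropped, the remaining log2 values were averaged per probe, and arrays were quantile-normalized, as the study's supplementary methods do. Of 50599 probes, 9 had no usable spot on some array. Probes were named by unversioned RefSeq accession (28168 matched), and the brightest probe stood for a gene. A probe dim on 1 array of a comparison entered as a bound, and one dim on both had no difference.

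The members, 9 role groups, 6 related lists and the marker lists were chosen with earlier results of these data known. All members could be named, as could the 3 genes at either end of each related list at 48 h. No test was run, and 1 array per condition gives no error between cultures, and precision is limited by the number of arrays. In all, 10 alternative settings were planned and 1 was added after seeing the data. The steps were tested on simulated arrays in which few genes differed and every probe was set as well above background. That setting does not cover the array that stood apart or the handling of dim probes. Python 3.11.15, numpy 2.4.6, pandas 2.3.3, matplotlib 3.10.9, and R 4.3.3 with limma 3.58.1 for normexp were used.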

Additional observations from a re-analysis of the deposited data

Results flagged for a closer look

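These genes went one way in one setting of a contrast and the other way in the other, by more than the median SD between spots each time. The differences between settings were not tested, as each rests on 1 array a condition, and all involve the array that stood apart and whose markers go against its label.

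Between the peptides, INCENP was lower at 24 h (-0.11) and higher at 48 h (0.63) with non-specific stapled-peptide. Its 24 h value was not over 2 SE from 0 by its own spots (SE 0.072). KIF20A (0.25 and -0.72), ANLN (0.35 and -0.20) and MKI67 (0.13 and -0.98) were higher at 24 h and lower at 48 h with non-specific stapled-peptide. Without normalization ANLN was higher at 48 h too (0.12).

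From 24 h to 48 h, 8 genes were lower with stapled-peptide and higher with the non-specific one. They were CCNA2 (-0.11 and 1.92), PLK1 (-0.10 and 1.21), AURKA (-0.16 and 0.12), ESPL1 (-0.17 and 2.35), AURKB (-0.10 and 2.66), KIF11 (-0.13 and 1.64), PRC1 (-0.16 and 2.25) and TOP2A (-0.13 and 0.86). ANLN (0.15 and -0.41) and MKI67 (0.18 and -0.93) went the opposite way, but the dimmest MKI67 probe was lower over time with both peptides (-0.11 and -0.40). Without normalization only 1 of 43 members was higher over time with stapled-peptide, beside a like-signal median of -0.21. The 8 genes kept their signs there, but a lower sign was nearly fixed by this shift, so it is no check of their direction. ANLN (-0.07 and -0.29) and MKI67 (-0.03 and -0.79) were lower over time with both peptides in that setting, under the same shift.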

How the results depend on the processing

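No paired analysis was possible because the groups compared share only replicate number 1. A fit of peptide plus time over the 4 arrays, which would leave 1 residual degree of freedom, could have been made and was not. A median was taken as unmoved when it shifted by less than 0.09, the median SD between spots of a probe. At 24 h every summary of the members stayed within this limit, and every count within 1.5 times, under all alternatives run, and the same holds with normalization over 3 arrays, without the one that stood apart, which was chosen after seeing the data.

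Scaling to the 75th percentile moved the 48 h median of 1.46 to 1.31, no normalization to 1.64, normexp with an offset of 50 to 1.33 (1.33 also for the excess over like-signal genes, 1.45 as reported) and averaging a gene's probes to 1.35. For time with non-specific stapled-peptide the median of 1.30 became 1.17 under scaling and 1.20 under normexp (excess 1.20), and 1 gene, not 0, was lower by over 2-fold under scaling. For time with stapled-peptide, no normalization gave a median of -0.21 with 1 gene higher, where the medians of all genes and of like-signal genes were -0.23 and -0.21. A threshold of 1.5-fold added 2 lower genes at 48 h and 2 over time with non-specific stapled-peptide, and 4-fold left 11 and 8 higher genes. No member past 2-fold changed its direction under the alternatives run, whereas ANLN at 48 h turned from -0.20 to 0.12 without normalization. The cause of these shifts was not tested. Leaving out genes dim on an array left the members' medians and counts as they were, since all members were well above background on all 4 arrays.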
